A study of Mus musculus with 2 samples.

Results

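The genes described here are the immediate early transcription factor genes of the AP-1 and Egr families: Fos, Fosb, Fosl1, Fosl2, Jun, Junb, Jund, Egr1, Egr2 and Atf3. They were chosen by name, as the gene probes whose array gene name was 1 of these 10 symbols, and every probe was kept apart. Of the 10 names, 9 were found, with 11 probes and 38 spots per array, out of 41174 gene probes that named 19504 genes. Jund was listed under its older symbol Jund1, with 1 probe, and is described beside the others.

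RNA was compared on 2 two-colour Agilent mouse arrays, each of which set a mouse lacking cGMP-dependent protein kinase I (PKGI-/-, encoded by Prkg1, called KO) against a wild type littermate (WT), all on the C57BL/6N background. The BAT array compared brown adipose tissue of untreated animals, with KO in the red dye Cy5 and WT in the green dye Cy3. The adipocyte array compared brown adipocytes grown in culture from preadipocytes, with KO in Cy3 and WT in Cy5. Age, sex, the time of culture and the part of Prkg1 that was removed were not given in the sources used here. Each comparison rests on 1 array without a dye swap, so no difference below has a test, a p-value or a biological replicate. Where a probe was printed on several spots, the SD over spots covers spotting and scanning only.

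The targeted gene was read first. Prkg1 probe A_51_P440210 had scanner signals of 170 in WT and 134 in KO tissue and of 341 in WT and 79.7 in KO cells, with normalized log2 ratios of KO over WT of -1.29 and -0.94. Probe A_52_P553069 had 139 in WT and 99.9 in KO tissue and 1501 and 128 in cells, with ratios of -1.22 and -2.31. The other 2 probes were not well above background in WT on either array. With outlier spots kept in the background fit the tissue ratios were -0.12 and -0.09. Whether these probes lie in the removed part is not known here. Between 63.1% and 74.1% of gene spots were well above background in a channel.

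Immediate early genes are transcribed within minutes of a stimulus, without new protein synthesis, and their mRNAs are short-lived. Fos and Jun family proteins pair through leucine zippers to form AP-1, which binds DNA elements called TRE and CRE, while Egr proteins bind GC-rich sites through zinc fingers. In brown fat, adrenergic stimulation and cAMP are known to induce several of these genes, and PKGI is the kinase through which cGMP signals in this tissue.

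Relative to the median of all genes, Fos, Egr2 and Atf3 were lower in KO than in WT on both arrays, and Fosl2 was higher in KO on both, except that its tissue values turned below 0 when centred on spiked-in controls. The remaining genes kept no common direction or were close to 0. Only Atf3 on the adipocyte array passed a 2-fold difference, at 2.26-fold lower in KO. Leaving Jund1 aside, the 11 probes thus gave 0 at least 2-fold higher and 0 lower on the BAT array, where 0.926% of the 30020 measured probes were higher and 2.44% lower. On the adipocyte array they gave 0 higher and 1 lower, where 2.07% of 29167 measured probes were higher and 3.89% lower. A probe counted as measured when it was well above background in at least 1 channel. The Fosl1 probe was not measured on the BAT array, so it could not be counted there. With Jund1, 11 probes were measured on both arrays, and 5 of these had the same direction in KO on both (45.5%), against 49.1% of all 26629 probes measured on both arrays. The share with a common direction among these genes was therefore near that of the whole array.

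**Figure D1:**
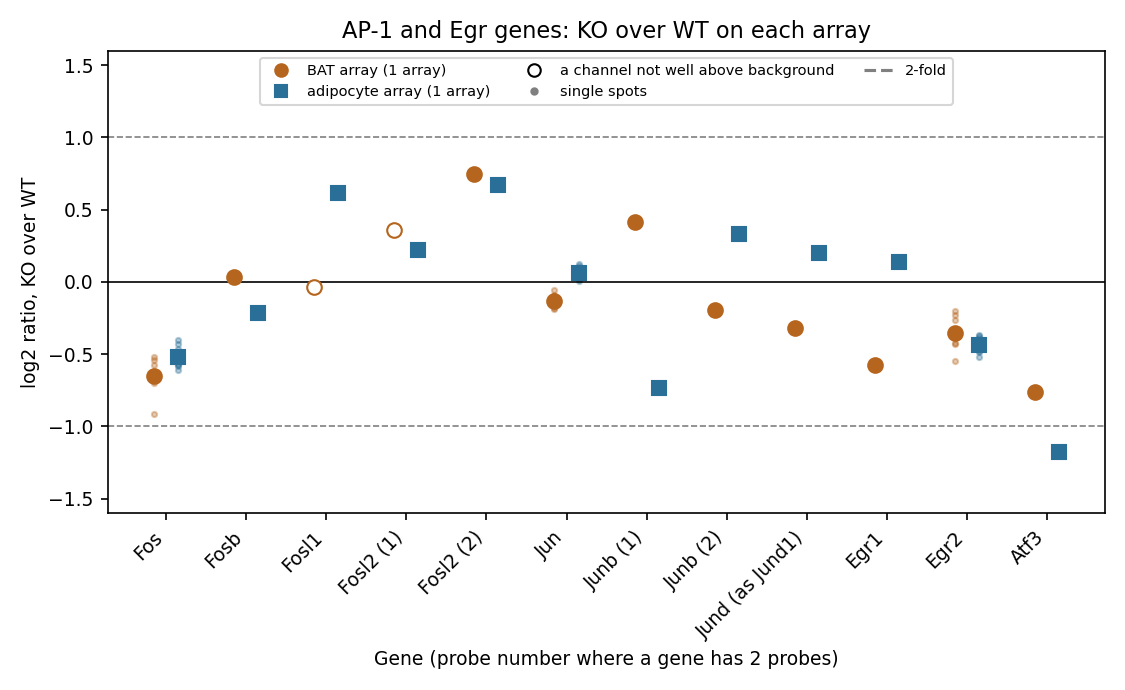
The log2 ratio of KO over WT (vertical axis) is plotted for each probe on the BAT array (circles) and the adipocyte array (squares); small points are single spots and dashed lines mark 2-fold. Fos, Egr2 and Atf3 lie below 0 and both Fosl2 probes above 0 on both arrays, and only Atf3 on the adipocyte array, at -1.18, lies past the 2-fold line. Where a gene has 2 probes, Fosl2 (1) is A_51_P507242, Fosl2 (2) is A_52_P484903, Junb (1) is A_51_P159194 and Junb (2) is A_51_P159201.

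The 4 genes with a common direction are shown with the 150 bases before their RefSeq transcription start. Such proximal windows can hold some of the elements through which immediate early genes are classically induced. Sequences are from RefSeq (GRCm38.p6), on the strand of the gene, with capitals marking motifs found by a letter search: CRE core (TGACG), TATA box (TATAAA), CArG box and Egr site (GCGNGGGCG), each on both strands. Egr2 has 5 annotated starts, and the window shown is the one of them with a CArG box and 2 CRE cores whose start lies farthest upstream.
Fos, chr12:85473740-85473889, plus strand: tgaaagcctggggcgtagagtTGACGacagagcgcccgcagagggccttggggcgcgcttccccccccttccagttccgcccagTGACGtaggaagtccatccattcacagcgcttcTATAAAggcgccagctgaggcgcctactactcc
Egr2, chr10:67537719-67537868, plus strand: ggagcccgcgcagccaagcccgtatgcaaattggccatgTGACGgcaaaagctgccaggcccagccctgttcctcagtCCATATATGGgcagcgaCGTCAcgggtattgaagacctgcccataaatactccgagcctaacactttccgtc
Atf3, chr1:191183334-191183483, minus strand: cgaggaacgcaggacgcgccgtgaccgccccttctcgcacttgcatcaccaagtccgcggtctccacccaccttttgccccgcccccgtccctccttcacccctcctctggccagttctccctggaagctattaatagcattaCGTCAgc
Fosl2, chr5:32136322-32136471, plus strand: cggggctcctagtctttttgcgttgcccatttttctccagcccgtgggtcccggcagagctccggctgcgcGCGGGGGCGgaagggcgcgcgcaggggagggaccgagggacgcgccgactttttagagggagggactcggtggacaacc
In Fos the CRE cores began 129 and 66 bases before the start and the TATA box 33 bases before it. In Egr2 the CArG box, the element of serum response factor, began 72 bases before the start, between CRE cores that began 111 and 55 bases before it. In Atf3 a CRE core on the opposite strand began 7 bases before the start. The Fosl2 window held no CRE core and 1 Egr site, which began 79 bases before the start. No matches overlapped in these windows.

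Over the 8 of 10 genes with a promoter window, a CRE core was present in Atf3, Egr2, Fos, Fosb and Junb, in 7 of 12 windows, against 13.3% of 32851 windows of the same length in all genes. Of the 12 windows, 5 were of Egr2. Those from 67537719, 67537720 and 67537780 overlapped and shared a CRE core and a CArG box, so these sites were counted more than once. The Egr2 windows from 67535349 and 67537416 held no CRE core. The CArG box was present in 4 Egr2 windows and in no window of the other genes, against 0.916% of all windows. Sites farther than 150 bases before a start were not searched, so absence from a window does not mean that a gene lacks the element. The Egr site was present in Fosb and Fosl2, against 3.81% of all windows. The TATA box was present in Fos, against 7.57%. The TRE (TGANTCA, both strands) was in none of the 12 windows and in 4.24% of all. The 3 genes lower in KO on both arrays each held a CRE core, but so did Fosb and Junb, whose probes had no common direction. These are matches of letters and no measure of binding.

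Fos encodes the founding AP-1 subunit, and its probe A_52_P262219 was printed on 10 spots. On the BAT array its normalized log2 signal was 7.93 in WT and 7.27 in KO, and over the 8 usable spots the log2 ratio of KO over WT was -0.65 ± 0.12 (SD, n = 8 spots), from -0.91 to -0.52. On the adipocyte array the log2 signal was 10.88 in WT and 10.37 in KO, with a ratio of -0.52 ± 0.07 (SD, n = 9 spots), from -0.61 to -0.40. All usable spots were below 0 on both arrays, at 1.57-fold and 1.43-fold lower in KO. Of all measured probes, 6.07% were lower still in tissue and 11.3% in cells. Among measured probes within 0.5 of its average log2 signal, 8.93% were lower in tissue and 13.7% in cells. With outlier spots kept in the background fit the BAT ratio was -0.05, and over 8 alternatives it ranged from -1.05 to -0.05.

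Fosl2, also known as Fra-2, encodes an AP-1 subunit whose expression is slower and more sustained than that of Fos. Its probe A_52_P484903, measured in all 4 RNA samples, had a log2 signal of 9.13 in WT and 9.88 in KO tissue and of 8.98 in WT and 9.65 in KO cells. The ratios were 0.75 and 0.67, or 1.68-fold and 1.59-fold higher in KO. These values stood above 97.7% of all measured probes in tissue and 94.3% in cells. Its second probe, A_51_P507242, was not well above background in WT tissue. In tissue its measured log2 ratio was 0.36, or 1.28-fold higher in KO, but 0.02 with outlier spots kept in the fit. In cells its ratio was 0.22. Both Fosl2 probes were higher in KO on both arrays, with 1 spot each. With outlier spots kept in the fit the BAT ratio of A_52_P484903 was 0.20.

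Fosb and Fosl1, the other Fos family genes, were dim. Fosb, probe A_51_P138378, had log2 signals of 7.05 in WT and 7.09 in KO tissue and 7.49 and 7.28 in cells, with ratios of 0.04 and -0.21. The tissue value was smaller than the pooled SD of ratios over repeated spots, which was 0.11 on the BAT array, and the cell value was larger than that of the adipocyte array, 0.09. Fosl1, also known as Fra-1, was not well above background in either genotype of the tissue. In cells its log2 signal was 6.82 in WT and 7.44 in KO, a ratio of 0.62 on 1 spot, or 1.53-fold higher in KO.

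Jun, the classic partner of Fos, differed little. Over 9 spots of probe A_51_P325914 the ratio in tissue was -0.13 ± 0.05 (SD, n = 9 spots), with log2 signals of 10.44 in WT and 10.29 in KO. In cells it was 0.06 ± 0.04 (SD, n = 8 spots), with 10.48 in WT and 10.55 in KO. The sign turned on both arrays without loess, the normalization that removes brightness-dependent dye bias, so no direction is given for Jun.

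Junb, an AP-1 subunit that is known to restrain Jun activity, was read by probes that disagreed. Probe A_51_P159194 was higher in KO tissue (log2 signals 12.09 in WT and 12.50 in KO, ratio 0.41) and lower in KO cells (14.82 and 14.09, ratio -0.74). Probe A_51_P159201 went the other way, at -0.19 in tissue (12.27 and 12.08) and 0.33 in cells (13.80 and 14.13). Without loess A_51_P159201 turned to 0.38 in tissue and -0.10 in cells, while A_51_P159194 kept its signs. The probes thus had the same sign on each array without loess. In that setting, centred on all gene spots, the median of all measured genes was 0.253 in tissue and -0.255 in cells. Against that median both probes were higher in KO tissue, but in KO cells A_51_P159201 was higher and A_51_P159194 lower. In the coordinates of the scanner files, whose build none of the sources used here states, the probes lie on chromosome 8 at 83563059 to 83563118 and at 83563097 to 83563156, and they share 22 bases. By dye, A_51_P159194 was higher in red than its neighbour on both arrays, by 0.60 and 1.07 on the log2 scale. These gaps were larger than those of 90.8% and 98.7% of genes with exactly 2 measured probes, whose median gap was 0.18 and 0.19. No direction is therefore given for Junb.

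Jund, read as Jund1 by probe A_51_P357744, encodes the Jun family member that is expressed widely and without stimulation. Its log2 signals were 13.62 in WT and 13.31 in KO tissue and 14.94 and 15.14 in cells, with ratios of -0.32 and 0.20. Without loess both turned sign, to 0.31 and -0.26, near the median of all measured genes in that setting (0.253 and -0.255).

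Atf3 encodes a stress-induced bZIP factor that pairs with Jun proteins and often represses transcription. Probe A_52_P452689 had log2 signals of 8.51 in WT and 7.75 in KO tissue and of 11.61 in WT and 10.44 in KO cells. The ratios were -0.76 and -1.18, or 1.69-fold and 2.26-fold lower in KO, on 1 spot each. Of all measured probes, 4.54% were lower still in tissue and 2.79% in cells. Over 8 alternatives the tissue ratio ranged from -1.03 to -0.09, the latter with outlier spots kept in the fit, and the cell ratio from -1.59 to -1.18. Over 14279 genes measured in both tissue and cells, Pdhb, a subunit of pyruvate dehydrogenase, was among the 2 whose pair of ratios lay nearest to that of Atf3 (-0.72 and -1.24, distance 0.075).

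Egr2, also known as Krox20, is induced early in adipocyte differentiation. Its probe A_51_P173043 gave ratios of -0.35 ± 0.10 (SD, n = 10 spots) in tissue, from -0.55 to -0.20, and -0.44 ± 0.05 (SD, n = 10 spots) in cells, from -0.52 to -0.37. Log2 signals were 7.45 in WT and 7.09 in KO tissue, and 11.31 in WT and 10.88 in KO cells. All 10 spots were below 0 on both arrays, at 1.28-fold and 1.35-fold lower in KO. Between 14.2% and 14.6% of measured probes were lower still on the arrays, so many probes differed more. Among measured probes within 0.5 of its average log2 signal, 17.5% were lower in tissue and 16.5% in cells. With outlier spots kept in the fit the tissue ratio was -0.02. Egr1, the serum- and stress-induced family member, was lower in KO tissue at -0.58 (log2 signals 11.13 in WT and 10.56 in KO) and -0.20 with outlier spots kept in the fit. Without loess it was -0.06 in tissue, where the median of all measured genes was 0.253. In cells its ratio was 0.14 (13.37 and 13.51). Without loess it turned to -0.27, near the median of all measured genes of -0.255.

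**Figure D2:**
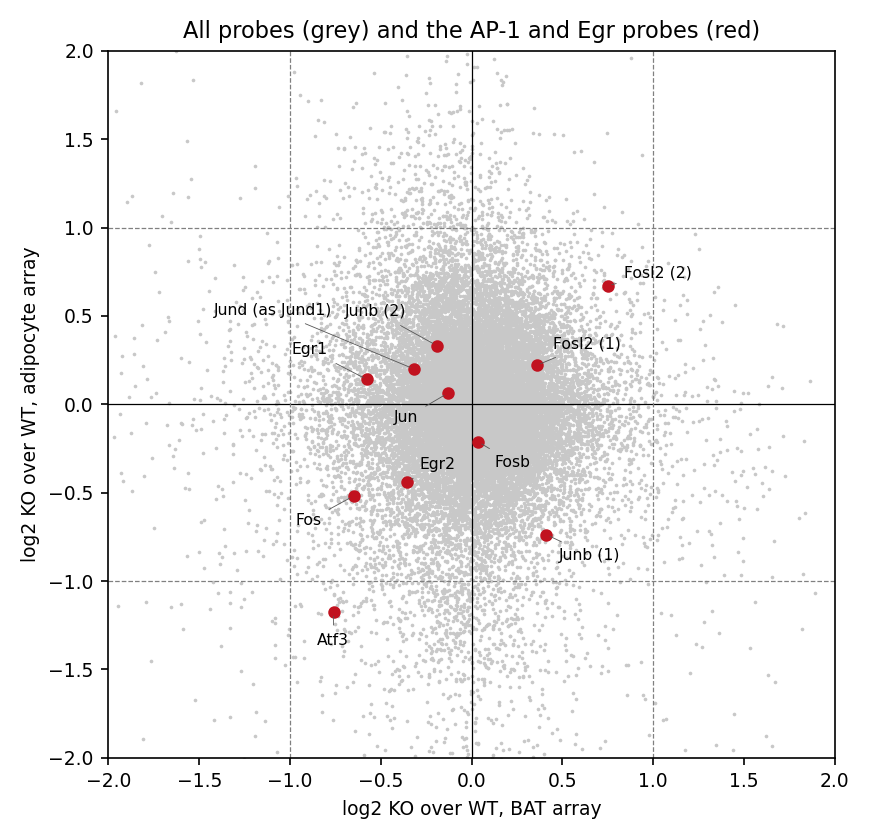
Each grey point is 1 of 26629 probes measured on both arrays, with the log2 ratio of KO over WT in tissue on the horizontal axis and in cells on the vertical axis; 337 probes lie outside the axes. Red points are the AP-1 and Egr probes: Fos, Egr2 and Atf3 sit lower left and Fosl2 upper right, among many other probes.

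Ratios are relative to the median of all genes, which was 0.00 on both arrays. Without loess they were centred on all gene spots, dim ones included, and the median of measured genes was 0.253 in tissue and -0.255 in cells. Centring on the spiked-in control RNAs subtracted the offset between their observed and expected log ratios. That offset was reported by Feature Extraction, the software of the scanner output, and was not recomputed from the ratios used here. The centring moved all ratios down, by 0.84 for tissue and 0.22 for cells. It put Fosl2 probes A_52_P484903 and A_51_P507242 at -0.09 and -0.49 in tissue. It also turned Fosb (-0.81) and Junb probe A_51_P159194 (-0.43) in tissue, and Jun (-0.16), Jund1 (-0.02) and Egr1 (-0.08) in cells. Before normalization the red channel was the brighter for each of these probes on both arrays. The mean scanner signal of Fos in tissue was 121 in WT and 148 in KO, that of Atf3 169 and 205, and that of Egr2 90.0 and 133, so normalization turned their order in tissue. In cells the signals of Fos (4592 in WT and 1414 in KO), Atf3 (7660 and 1498) and Egr2 (6256 and 2054) had the same order before and after it. For Fosl2 probe A_52_P484903 the signals were 218 in WT and 854 in KO tissue, and 1181 in WT and 837 in KO cells, so the order was turned in cells. As the dyes were opposite on the arrays, a probe that always reads brighter in 1 dye would give opposite signs in KO. The KO values of Fosb, Jun, Junb, Jund1 and Egr1 had opposite signs on the arrays, and those of Fos, Egr2, Atf3 and Fosl2 had the same sign. Whether dye bias had a part in these values was not tested.

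The levels of several of these genes differed far more between the arrays than between genotypes, a comparison that was added after the values were seen. Averaged over both channels, Egr2 was 14.2-fold higher in cultured cells than in tissue, Fos 8.17-fold, Atf3 7.43-fold, Egr1 6.02-fold, Junb 4.47-fold and 3.47-fold by its probes, and Jund1 2.98-fold. Fosl1, near background in tissue, had no settled direction, at 3.77-fold with Feature Extraction's processed signals and 0.867-fold with uncorrected mean signals. Jun (1.11-fold), Fosb (1.24-fold) and Fosl2 (0.88-fold and 0.76-fold) differed by less than 2-fold, apart from the second of these Fosl2 probes, A_51_P507242, which was at 0.305-fold and 0.331-fold under those other scales. Under them Fosb was at 0.981-fold and 0.66-fold and Jund1 at 1.87-fold and 1.99-fold, while the median of all probes moved from 0.01 to -0.41 and -0.74 on the log2 scale. Of the 11 probes, 6 were at least 2-fold higher in cells and 0 lower, against 17.6% and 16.7% of 31833 probes over the whole array. In each of Fos, Egr2, Atf3 and Egr1 the WT channel and the KO channel both showed it, for example by 2.95 and 3.11 on the log2 scale for Fos. Tissue and cells were on different arrays, so the array and the sample type cannot be told apart.

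**Figure D3:**
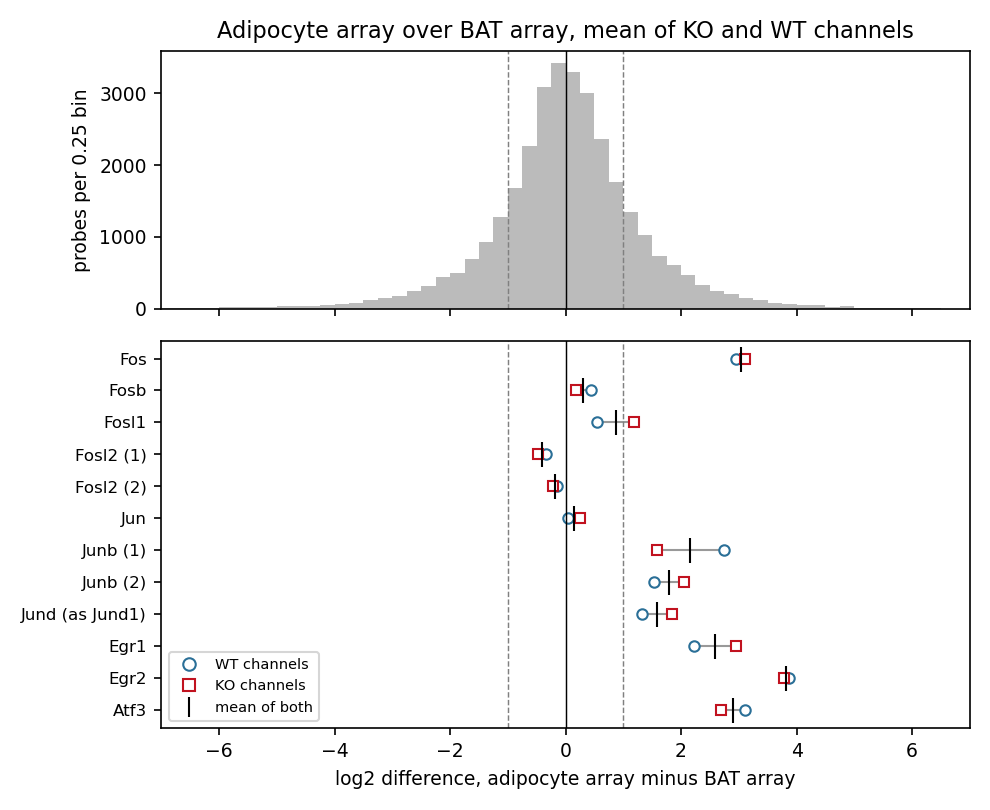
The upper panel is a histogram of the log2 difference between the adipocyte array and the BAT array (mean of KO and WT channels) over all measured probes; the lower panel gives it for each AP-1 and Egr probe, with WT channels as circles, KO channels as squares and their mean as a bar. Egr2, Fos, Atf3, Egr1 and 1 Junb probe lie beyond 2 on this scale while Jun, Fosb and Fosl2 lie near 0.

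**Figure D4:**
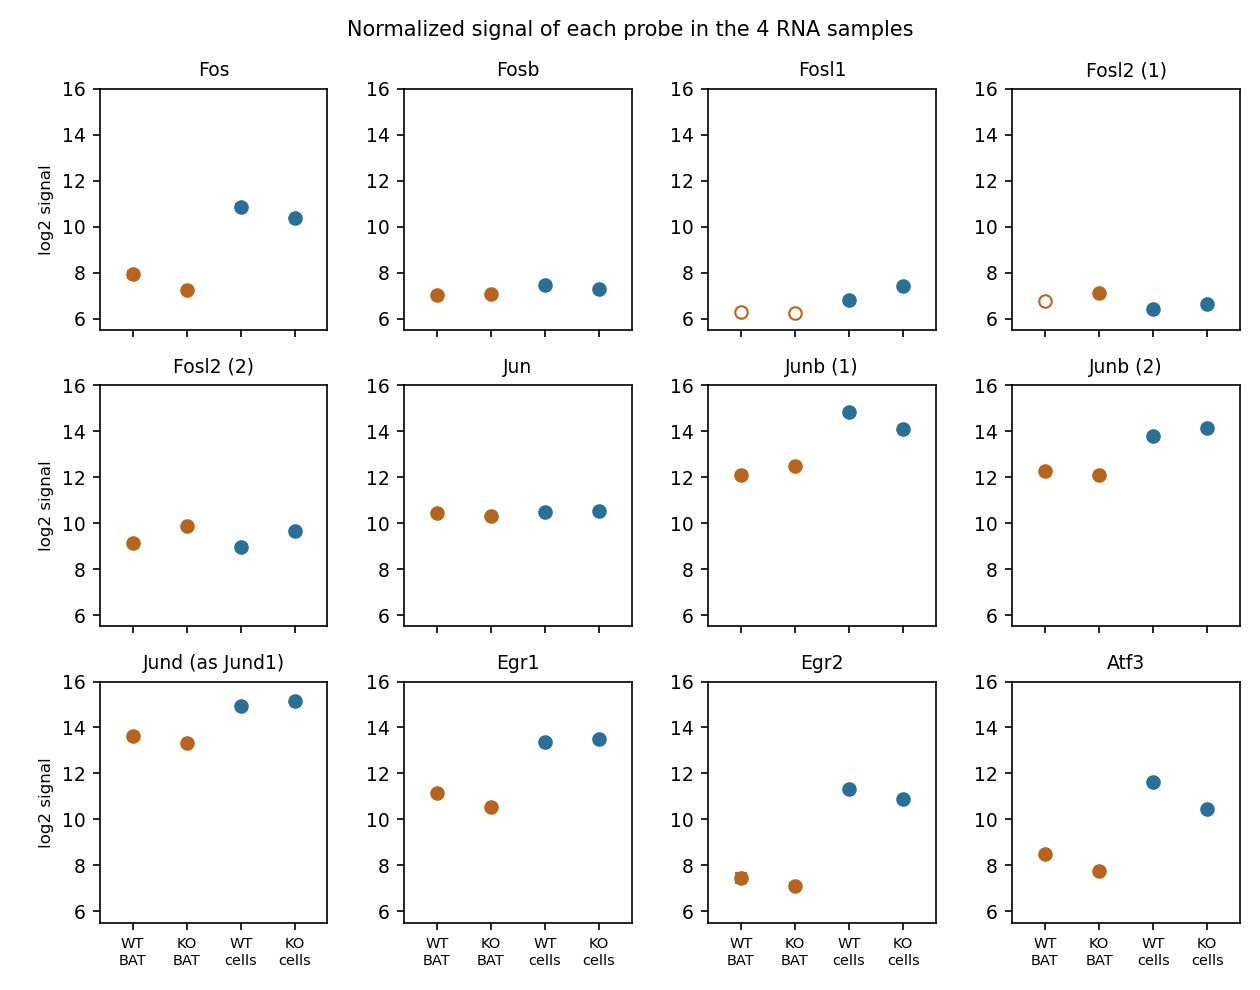
The normalized log2 signal (vertical axis) of each probe is given in the 4 RNA samples, WT and KO tissue (brown) and WT and KO cells (blue), with the SD over spots where there were several and open symbols where the channel was not well above background. Levels compare samples for a probe, and not probes with each other. Fos goes from 7.93 and 7.27 in tissue to 10.88 and 10.37 in cells.

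The other bZIP and Egr family genes showed little: of 24 measured in tissue none was at least 2-fold different (median 0.08), with Maff, a small Maf protein without a transactivation domain, at 0.58. Of 25 in cells, 1 was higher, Maff at 1.09, and 1 lower, with a median of -0.17. Among other immediate early genes, 1 of 38 was higher and 2 lower in tissue (median -0.14) and 3 of 39 higher and 4 lower in cells (median -0.01). Gene ratios are means over the measured probes of a gene. In these lists the shares stand beside 0.8% of genes higher and 2.44% lower in tissue and 2.49% higher and 4.17% lower in cells. Arc, an immediate early gene first described in neurons, was lower on both (-1.19 and -1.88). Dusp2, which dephosphorylates MAP kinases, was lower in cells (-1.76). Rgs2, a G protein signalling inhibitor that PKGI is known to phosphorylate, was higher in tissue (1.89) and lower in cells (-1.59), and Ccn2, a matricellular protein induced by serum and TGF-beta, was lower in tissue (-1.03) and higher in cells (3.36).

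Among the kinases and factors that act upstream (ERK, JNK and p38 kinases, SRF, TCF and MRTF), 0 of 29 were 2-fold different in tissue (median -0.11), and 1 of 29 was higher in cells (median -0.05). The largest differences in tissue were Map2k2 at -0.43 and Mapk13 at -0.43, and the gene past 2-fold in cells was Mapk12, at 1.13. Of textbook AP-1 and Egr target genes, 22 were measured in tissue, where 1 was higher, Spp1 at 1.17, and 1 was lower. The lower gene was Areg, an EGF receptor ligand, measured at 3.07-fold below WT with a KO signal near background. In cells 25 were measured and 7 were higher and 2 lower, with a median of 0.29, among them Il6 at 1.80, F3 at 1.54 and Timp1 at 1.54. Lep, encoding leptin, had a measured ratio of -2.56 in cells, with a KO signal near background. With outlier spots kept in the fit, tissue ratios were -0.11 for Arc, -0.31 for Ccn2, -0.10 for Areg and 0.14 for Spp1.

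**Figure D5:**
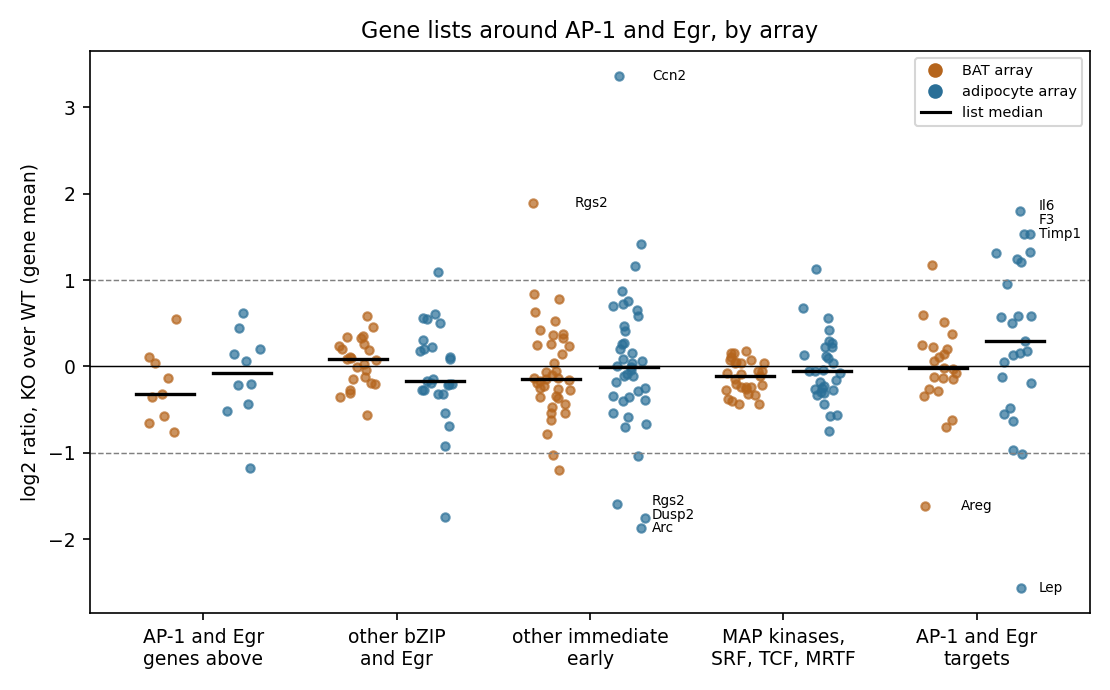
Each point is 1 gene of a list (horizontal axis), with its log2 ratio of KO over WT (vertical axis, gene mean over measured probes) on the BAT array (brown) and adipocyte array (blue); black bars are list medians and dashed lines mark 2-fold. The medians of the 5 lists lie between -0.32 and 0.29.

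Markers of other cell types moved with the genotype. In tissue 13 of 13 measured skeletal muscle markers were at least 2-fold lower in KO (summed signal 74405 in KO and 477826 in WT, with Casq1 not well above background), and of 9 brown adipocyte markers 5 were lower and 1, Cidea, was higher (1.01). Of 12 adipocyte markers in tissue, 1 was at least 2-fold higher in KO, Cfd at 1.78, and 0 were lower, with a list median of -0.004. With outlier spots kept in the fit 10 skeletal muscle and 2 brown adipocyte markers were at least 2-fold lower in KO tissue, and Cidea was at 0.84. In KO cells all 12 adipocyte markers were lower (median -3.48, summed signal 61547 in KO and 1135410 in WT), 8 of 10 macrophage markers were lower (149128 and 718900), and 5 of 8 smooth muscle markers were higher (659787 and 165327). All 12 adipocyte and 9 brown adipocyte markers were above background in at least 1 channel of both arrays, and the summed signal of the brown markers was 431948 in WT and 303542 in KO tissue and 13778 in WT and 2584 in KO cells. In tissue no macrophage marker was 2-fold different. Of 8 smooth muscle markers in tissue, 1 was at least 2-fold lower in KO, Des at -1.45, with a list median of -0.56. With outlier spots kept in the fit Des was at -0.75. In cells against tissue, 9 of 10 macrophage markers were higher and 11 of 12 adipocyte markers were lower by 2-fold or more. Of the lymphocyte, endothelial, fibroblast, nerve and erythroid lists, Cd3g (-1.05) and S100b (-1.29) in tissue were the genes past 2-fold, both lower in KO, and with outlier spots kept in the fit they were at -0.08 and -1.24. In bulk RNA, fewer cells of a type and less RNA per cell cannot be told apart, and the part of these markers in the values above was not tested.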

How the data were processed

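Per the file headers, the scanner output of Agilent Feature Extraction 9.5.1.1 gives intensity of each spot and its surroundings in both dyes, and a log10 ratio. The authors' table, also log10, matched that ratio, turned so that KO stands over WT. Here limma 3.58.1 (R 4.3.3) left out outlier spots, corrected background by normexp (offset 50) and normalized by loess, controls having weight 0. Leaving outlier spots out before the background fit follows earlier work on these data and was settled with values known. So were the members and lists. The steps were tested on simulated data without outlier spots, in which only bright probes were changed, each by more than 2-fold. Dim probes, smaller differences and the choice on outlier spots were not covered by it. Levels across arrays were scaled by quantiles of average signal (Aquantile). Probes were named through RefSeq (GRCm38.p6): 22944 by accession, 6664 by symbol, 3108 by synonym, with 8458 unnamed. Text names all member probes, Prkg1, up to 4 genes past 2-fold per pathway list and array (otherwise the 2 largest), up to 2 per marker list, and the 2 genes nearest to a member past 2-fold; some genes this rule names are not reported here. Alternatives changed background, normalization, filter, centring and source table.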

Additional observations from a re-analysis of the deposited data

Results flagged for a closer look

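Opposite directions of KO over WT on the BAT and adipocyte arrays were seen at these probes and genes, for which the difference was not tested, having 1 array each with opposite dyes. The difference (adipocyte minus BAT, log2) was 0.72 for Egr1 (-0.58 and 0.14), -1.15 for Junb probe A_51_P159194 (0.41 and -0.74) and 0.52 for Junb probe A_51_P159201 (-0.19 and 0.33). The difference was 4.39 for Ccn2 (-1.03 and 3.36) and -3.48 for Rgs2 (1.89 and -1.59). With loess the Junb probes moved in opposite directions from each other. Without loess they had the same sign on each array, but in cells they lay on opposite sides of the median of all measured genes (-0.255).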

How the results depend on the processing

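No paired analysis was possible because each comparison is a single array with 1 sample of each genotype. On the BAT array the number of member probes at least 2-fold higher went from 0 to 1 with Feature Extraction's log ratio, without loess and with the deposited table, and the number lower from 0 to 1 with normexp offset 0 and with the deposited table, to 2 with Feature Extraction's log ratio and to 5 when centred on spiked-in controls. On the adipocyte array the number higher went from 0 to 1 with Feature Extraction's log ratio and the deposited table, and the number lower from 1 to 2 without loess. Between the arrays, the number of probes at least 2-fold higher in cells went from 6 to 7 with processed signals, and the number lower went from 0 to 1 with processed signals and with uncorrected mean signals. The cause was not tested. Apart from spike centring, 173 of 182 probe ratios of members kept their sign over 8 alternatives and 9 turned it, all but 1 of them without loess. Keeping outlier spots in the fit shrank the tissue ratios of Fos, Egr2, Atf3 and Egr1 to between -0.20 and -0.02. Of 557 other values under alternatives, 339 moved by less than the spread between spots and 218 by more. Signal near background limits the dim probes of Fosb, Fosl1 and Fosl2 (1). Fos and Egr2 were well above background in tissue but also dim there. Their log2 signals were 7.93 in WT and 7.27 in KO for Fos, and 7.45 and 7.09 for Egr2. Those of Fosb in tissue were 7.05 and 7.09. Without loess, 5 of the other immediate early genes in tissue were at least 2-fold higher against 1, and in cells 7 were lower against 4, while of the textbook targets in cells 4 were higher against 7 and 4 lower against 2. In that setting the median of all measured genes was 0.253 in tissue and -0.255 in cells. These counts and the sign turns without loess are therefore not relative to that median. The share of all genes past 2-fold without loess is not given here.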
